A study of Mus musculus with 6 samples.

Results

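Pmaip1, Bbc3, Bcl2a1b and Casp4 are genes of cell death control, and they were chosen by name: 4 of the 854 genes in the deposited table, all 4 of them found there and all 4 with enough reads to test. RNA was sequenced from mouse OT-I cells, T cells from spleen and lymph nodes that carry a transgenic receptor for an ovalbumin peptide. The wild-type (WT) group and the group with a conditional knockout (cKO) of Themis, which encodes a T-lineage signalling protein, held 3 libraries each. Cells of both genotypes had been enriched as naive cells and then cultured for 3 days in 1 µg/ml IL-2, so the comparison asks how their transcripts differ when Themis is deleted under this cytokine. The driver of the deletion, the age of the mice and whether replicates came from separate mice or cultures are not stated in the sources used here, so p-values cover only how far these libraries differ, which may be technical variation.

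Cells that lose growth signals can die from within, through their mitochondria. BH3-only proteins such as NOXA (encoded by Pmaip1) and PUMA (encoded by Bbc3) start this process by binding pro-survival proteins of the BCL2 family, which otherwise hold the pore-forming proteins BAX and BAK in check. A1, the family to which Bcl2a1b belongs, is one of those pro-survival proteins and is induced in activated lymphocytes. Casp4 encodes mouse caspase-11, which senses bacterial lipopolysaccharide in the cytosol and cleaves gasdermin D, leading to pyroptosis, a lytic form of death. Cytokines such as IL-2 keep T cells alive in part by holding this balance toward the pro-survival side.

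Transcripts of the BH3-only genes Pmaip1 and Bbc3 were about as far below WT as each other in the Themis cKO libraries, 4.13-fold and 3.82-fold lower. The pro-survival gene Bcl2a1b was 3.27-fold lower, and Casp4 was 2.06-fold lower with the widest spread between libraries. All 4 genes passed the quasi-likelihood test of edgeR (p-values adjusted by the Benjamini-Hochberg method, threshold 0.05), beside 100% of the 794 tested genes, and all 4 were lower in cKO, beside 75.8% of the tested genes. Those background shares are high because the table has an empty interval. With the genotypes taken at equal depth, no gene had a log2 ratio of mean counts from -0.94 to 1.06. At that depth only genes differing about 2-fold or more are left. A call in this table is therefore no independent evidence that a gene changed, and the values below are mainly a description. In bulk RNA, fewer cells that express a gene and less of its RNA per cell cannot be told apart.

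The targeted gene checks the labels: Themis (chromosome 10, 28668360 to 28883820) stood 4.76-fold lower in cKO, at a mean of 1140 ± 141 scaled counts against 5423 ± 420 in WT (SD, n = 3 each). A scaled count is an estimated read count divided by a library factor of 0.944 to 1.04, set within each genotype, with the genotypes taken at equal depth. Read counts over the 854 genes summed to 946766 to 1054442 in WT and 424605 to 437437 in cKO; these are sums over selected genes and not depths, which are unknown here. Equal depth is an assumption that bears on every fold change: scalings that centre the table on itself moved the median log2 fold change upward by 1.29 to 1.30. With them the split of 192 genes higher and 602 lower in cKO became 224 and 214 (TMM), 221 and 217 (DESeq2 size factors) and 224 and 207 (DESeq2 itself). Of 10 genes that mark CD8 T cells, Themis alone was in the table, so the labelled cell type was not checked here.

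**Figure D1:**
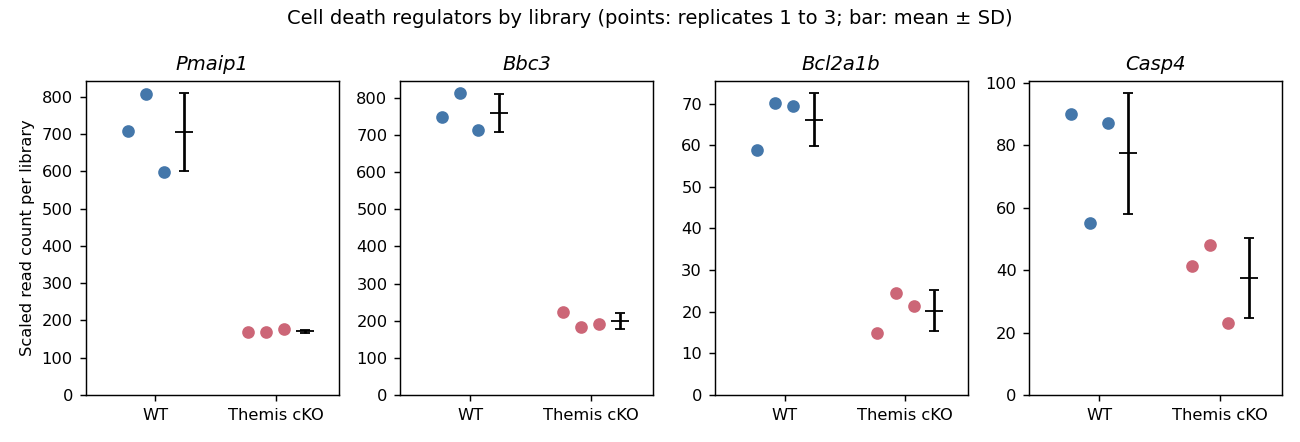
Scaled read counts (vertical axes, each starting at 0, with its own range per gene) of Pmaip1, Bbc3, Bcl2a1b and Casp4 in 3 WT and 3 Themis cKO libraries; points are libraries and bars are mean ± SD. Every WT library lies above every cKO library for each gene, widely for Pmaip1 (lowest WT value 3.41 times the highest cKO value) and narrowly for Casp4 (1.14 times). Of the 794 tested genes, 75.7% were likewise lower in cKO without overlap.

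Pmaip1 (Gene ID 58801) lies on chromosome 18, 66458604 to 66465558 of GRCm38.p6. It had 709, 809 and 599.7 scaled counts in WT replicates 1 to 3, and 169, 168 and 176 in cKO replicates 1 to 3. The WT libraries were spread out while the cKO libraries were almost level, and the groups did not overlap, as for 75.7% of tested genes in this direction. The means were 706 ± 105 and 171 ± 4.05 (SD, n = 3 each). The spread in WT was 14.8% of the mean, against 3.76% from read counting alone, and in cKO it was 2.37%, below the 7.65% that counting gives. The log2 fold change of Pmaip1 was -2.04 with a standard error (SE) of 0.15 (edgeR, adjusted p = 6.84e-07). Centred on the table, the scalings above gave -0.75 to -0.74 and Pmaip1 was still called (adjusted p from 1.60e-05 to 0.00149, edgeR and DESeq2). Under TMM, 27.0% of tested genes were called lower. The authors' deposited table gives Pmaip1 a log2 value of -1.83 and a q-value of 4.28e-07. By size of decrease it was number 192 of the 602 genes lower in cKO.

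Bbc3 (Gene ID 170770) lies on chromosome 7, 16308398 to 16318334. Its scaled counts were 749, 814 and 714 in WT replicates 1 to 3 and 223, 183 and 191 in cKO replicates 1 to 3. The libraries of a genotype were close to each other and the genotypes were far apart. The means were 759 ± 50.7 and 199 ± 20.9 (SD, n = 3 each). The log2 fold change of Bbc3 was -1.93 with an SE of 0.13 (edgeR, adjusted p = 5.14e-07). With the table-centred scalings it was smaller, -0.64 to -0.63, and still called (adjusted p from 8.24e-06 to 0.00232, edgeR and DESeq2), beside 27.0% of tested genes called lower under TMM. The authors' deposited table gives Bbc3 -1.75 with a q-value of 1.40e-08, the smallest of the 4. It was number 219 of the 602 lower genes by size of decrease.

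RefSeq lists several transcription starts for Bbc3, which matters because FOXO factors and p53 are known to induce this gene. Stretches upstream of 2 of its starts are shown since they hold matches to searched motifs, in capitals (GRCm38.p6, plus strand, 250 bases before the start). In the first, chr7:16309333-16309582, the capitals are a match to the NF-kappaB letters (GGG and TTTCC with any 2 bases between) on the minus strand at -136 to -127 and one to the EGR letters GCGNGGGCG at -49 to -41. In the second, chr7:16310011-16310260, they are a match to the FOXO letters GTAAACA on the minus strand at -167 to -161 and an EGR match on the minus strand at -141 to -133.
Bbc3 first upstream stretch: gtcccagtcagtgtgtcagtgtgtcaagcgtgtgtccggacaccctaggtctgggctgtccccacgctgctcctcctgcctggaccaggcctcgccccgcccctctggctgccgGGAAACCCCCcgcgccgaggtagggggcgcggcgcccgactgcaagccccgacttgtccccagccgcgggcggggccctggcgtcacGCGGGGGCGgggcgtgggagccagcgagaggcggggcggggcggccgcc
Bbc3 second upstream stretch: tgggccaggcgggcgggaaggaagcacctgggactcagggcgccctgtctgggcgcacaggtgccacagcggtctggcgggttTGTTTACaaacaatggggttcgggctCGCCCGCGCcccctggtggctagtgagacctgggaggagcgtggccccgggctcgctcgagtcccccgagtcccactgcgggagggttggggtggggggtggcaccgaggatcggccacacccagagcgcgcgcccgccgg
Both stretches are rich in G and C, 76.4% and 72.4%, and the matches do not overlap; minus-strand matches are printed as the plus strand reads. Bases are numbered backward from -1 just before the start. The window of a further start, which overlaps the second, had an E-box (CACGTG) at -64 to -59.

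The shares of all RefSeq upstream windows give these matches a scale. Of 32851 windows of 250 bases, both strands searched, 1.41% held the NF-kappaB letters, 4.70% the EGR letters, 3.17% the FOXO letters and 6.02% the E-box. A match is a description of the letters and not evidence that a factor binds. The letters searched for interferon response elements (GAAA and GAAA with any 2 bases between, 2.98% of windows), STAT sites (TTCNNNGAA, 7.02%), cyclic AMP response elements (TGACGT, 6.47%) and p53 (CATG and CATG with any 6 bases between, 0.490%) were not found in the windows of Bbc3, Bcl2a1b or Casp4. Windows were matched for these 3 of the 4 genes. The search covered only the exact letters given, so variant forms of a site, p53 sites among them, would have been missed.

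Bcl2a1b (Gene ID 12045) lies on chromosome 9, 89199273 to 89207838, near its family members Bcl2a1a (88956920 to 88962416) and Bcl2a1d (88723288 to 88731850). It was read far less than the BH3-only genes, with 58.7, 70.2 and 69.4 scaled counts in WT replicates 1 to 3 and 14.8, 24.4 and 21.4 in cKO replicates 1 to 3. The lowest WT library was 2.40 times the highest cKO library, and 75.7% of tested genes also did not overlap in this direction. The means were 66.1 ± 6.41 and 20.2 ± 4.93 (SD, n = 3 each), with a spread of 9.70% and 24.4% of the mean, close to the 12.3% and 22.2% that read counting alone gives. The log2 fold change of Bcl2a1b was -1.69 with an SE of 0.25 (edgeR, adjusted p = 0.000125). Scalings centred on the table ended that call, with log2 fold changes from -0.40 to -0.39 and adjusted p from 0.215 to 0.321. The authors' deposited table gives Bcl2a1b -1.29 with a q-value of 0.0248.

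The count of Bcl2a1b cannot be assigned to this gene alone with certainty. Of the 768 stretches of 50 bases in its GENCODE transcript, 79.2% also occur in a transcript of another gene. Bcl2a1d shares 57.6%, the predicted gene Gm29094 46.0%, Bcl2a1a 41.1% and Bcl2a1c 0.260%. None of these 4 is in the table, and how reads shared between copies were divided is not stated in those sources. The transcripts of Pmaip1, Bbc3 and Casp4 shared no stretch of 50 bases with any other gene (0 of 2678, 0 of 1765 and 0 of 1386).

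The sequence upstream of Bcl2a1b is shown because A1 genes are known targets of activation signals, and its stretch holds an AP-1 match. The part printed is chr9:89199023-89199208 (GRCm38.p6, plus strand, -250 to -65), which ends before the transcript start that GENCODE gives. The capitals mark the AP-1 letters TGANTCA, a match on both strands at -164 to -158, and an EGR match on the minus strand at -82 to -74.
Bcl2a1b upstream stretch: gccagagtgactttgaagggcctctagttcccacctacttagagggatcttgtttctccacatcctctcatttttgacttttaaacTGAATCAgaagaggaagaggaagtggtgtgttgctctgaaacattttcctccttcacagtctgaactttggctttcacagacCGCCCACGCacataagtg
Beyond the printed part, the letters TGATGNAA of the amino acid response element, to which ATF4 binds with a partner, matched at -40 to -33. AP-1 letters occurred in 6.75% and TGATGNAA in 3.45% of all windows. No matches overlapped.

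Casp4 (Gene ID 12363) lies on chromosome 9, 5308849 to 5336791, between the caspase genes Casp1 (5298517 to 5307281) and Casp12 (5345442 to 5373034), neither of which is in the table. Its scaled counts were 90.1, 55.1 and 87.3 in WT replicates 1 to 3 and 41.3, 48.2 and 23.2 in cKO replicates 1 to 3. WT replicate 2 was low and cKO replicate 2 high, and these were nearly level, so the groups were separated by a small gap. A lack of overlap in this direction held for 75.7% of tested genes. The means were 77.5 ± 19.5 and 37.6 ± 12.9 (SD, n = 3 each), a spread of 25.1% and 34.3%, against 11.4% and 16.3% from read counting alone. The log2 fold change of Casp4 was -1.04 with an SE of 0.31 (edgeR, adjusted p = 0.00750). Only 76 of the 602 lower genes had a smaller decrease, so Casp4 sits near the edge of the empty fold interval.

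The direction of Casp4 depended on the scaling, and its call also on the number of genes adjusted for. Its log2 fold change turned positive under the table-centred scalings, at 0.25 to 0.27, with adjusted p from 0.482 to 0.586. When the adjustment covered the 16996 genes implied by the ratio of deposited p-values to q-values, its log2 fold change stayed -1.04 and its adjusted p was 0.160 (edgeR), while 70.3% of tested genes were still called lower. The authors' deposited table gives Casp4 a log2 value of -0.29, a factor of 1.22, with a q-value of 0.906. Only 2 of the 854 genes had a log2 value closer to 0 in the authors' deposited table. In that table, by a q-value of 0.05, 67.6% of genes passed and 55.0% passed as lower in cKO, including Pmaip1, Bbc3 and Bcl2a1b.

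The stretch upstream of Casp4, a gene known to be induced by interferons and bacterial products, is shown for its NF-kappaB match. It is chr9:5308599-5308827 (GRCm38.p6, plus strand, -250 to -22), and its capitals are a FOXO match at -209 to -203 and an NF-kappaB match at -93 to -84, which do not overlap.
Casp4 upstream stretch: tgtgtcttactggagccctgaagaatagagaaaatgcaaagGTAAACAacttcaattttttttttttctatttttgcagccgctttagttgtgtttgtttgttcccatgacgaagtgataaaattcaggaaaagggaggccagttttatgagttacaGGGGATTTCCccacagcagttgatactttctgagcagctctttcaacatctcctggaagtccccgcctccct
A further NF-kappaB match, on the minus strand at -14 to -5, lies beyond the printed part. At 41.5% G and C, the stretch is far poorer in these bases than those of Bbc3.

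**Figure D2:**
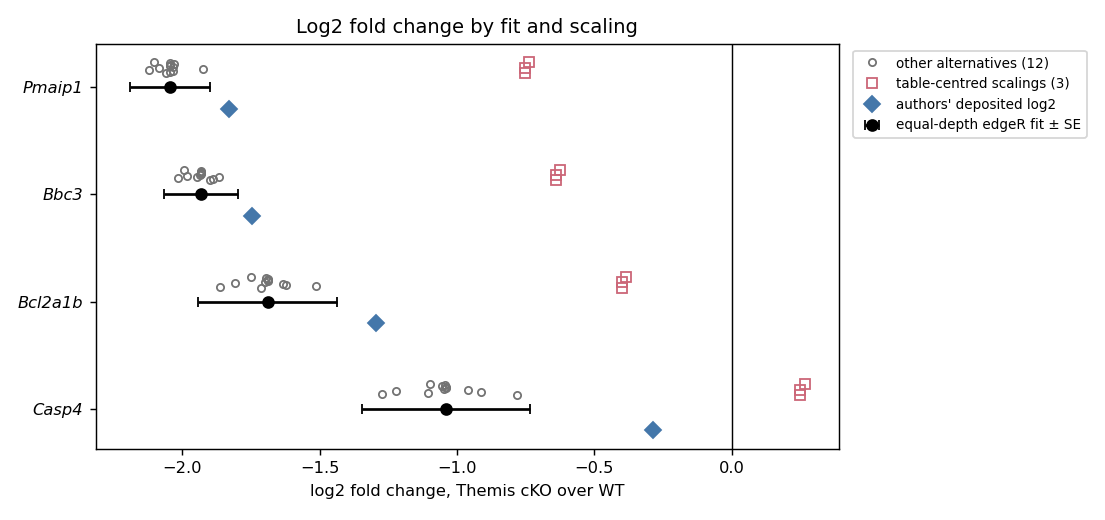
Log2 fold change of Themis cKO over WT (horizontal axis) for the 4 genes: black points with SE bars are the equal-depth edgeR fit, grey circles 12 alternatives, red squares the 3 table-centred scalings and blue diamonds the authors' deposited values. The deposited value lies closer to 0 than the fitted one for each gene, least so for Bbc3 (by 0.19) and most for Casp4 (by 0.75), and only the red squares of Casp4 cross 0.

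Per length, the order of the genes was set by dividing scaled counts by the length of the longest coding GENCODE transcript (2727 bases for Pmaip1, 1814 for Bbc3, 817 for Bcl2a1b and 1435 for Casp4). In WT, Bbc3 had 418 ± 28.0 scaled counts per kilobase, Pmaip1 259 ± 38.4, Bcl2a1b 80.9 ± 7.85 and Casp4 54.0 ± 13.6 (SD, n = 3 each), and the libraries of neighbours in this order did not overlap. In cKO the levels were 109.6 ± 11.5, 62.7 ± 1.48, 24.7 ± 6.03 and 26.2 ± 8.99 in the same gene order, and the libraries of Bcl2a1b and Casp4 overlapped. The order thus ran from the BH3-only genes down to Bcl2a1b and Casp4 in WT, and Bcl2a1b and Casp4 could not be ordered in cKO. The level of Bcl2a1b also depends on how reads shared with other genes were divided, as 79.2% of its stretches are shared. All these levels per length depend on which isoforms were present, since shorter coding transcripts of 405 bases (Bbc3), 1012 (Pmaip1) and 361 (Casp4) are annotated.

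The ratio of 2 genes within a library does not depend on the scaling between libraries, so it shows whether the genes fell by unlike amounts. Pmaip1 to Bbc3, the pair of BH3-only genes, had a mean log2 ratio of read counts of -0.11 ± 0.12 in WT and -0.21 ± 0.16 in cKO, a difference of -0.10 with an SE of 0.12. This ratio is the steadiest of the 6, and it overlapped between genotypes. Pmaip1 to Bcl2a1b went from 3.41 ± 0.26 to 3.11 ± 0.37, a difference of -0.30 (SE 0.26). Bbc3 to Bcl2a1b went from 3.52 ± 0.16 to 3.33 ± 0.52, a difference of -0.20 (SE 0.32). Both differences moved when single libraries were left out. Without cKO replicate 1 they were -0.50 for Pmaip1 to Bcl2a1b and -0.49 for Bbc3 to Bcl2a1b, and without cKO replicate 2 they were -0.13 and 0.012.

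The larger differences all involved Casp4. Pmaip1 to Casp4 differed by -0.96 (SE 0.48), Bbc3 to Casp4 by -0.86 (SE 0.43) and Bcl2a1b to Casp4 by -0.66 (SE 0.49), each lower in cKO. For every pair the values of the genotypes overlapped. The two-sided exact permutation test over libraries gave p = 0.20 to 0.60 over the 6 pairs (Benjamini-Hochberg adjusted 0.40 to 0.60), and with 3 against 3 libraries it cannot go below 0.10. Leaving out 1 library moved Pmaip1 to Casp4 between -1.29 (without cKO replicate 3) and -0.63 (without WT replicate 2), and Bbc3 to Casp4 between -1.15 and -0.58 without the same libraries. Bcl2a1b to Casp4 moved between -1.03 (without cKO replicate 3) and -0.35 (without cKO replicate 1). The test could not decide whether Casp4 fell by less than the BH3-only genes.

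**Figure D3:**
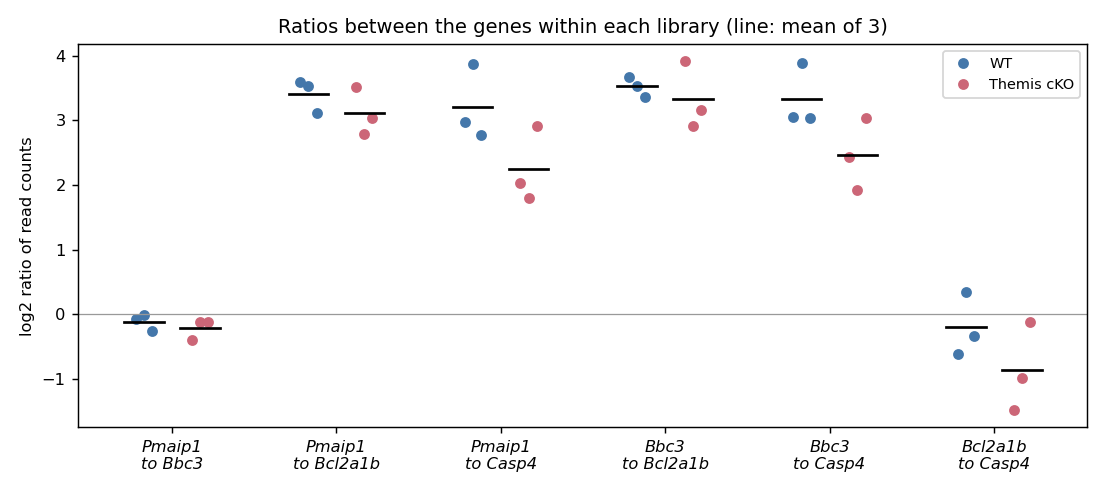
Log2 ratio of read counts (vertical axis) for the 6 pairs of genes in each WT (blue) and Themis cKO (red) library; lines are means of 3. The Pmaip1 to Bbc3 ratio stays near 0 in all 6 libraries (-0.40 to -0.01), and the genotypes overlap in every pair.

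Genes with the most similar profiles were taken over the 6 libraries, by the root-mean-square distance of log2(scaled count + 1) after centring each gene. Pmaip1 and Bbc3 were 0.13 apart, Pmaip1 and Bcl2a1b 0.31, Bbc3 and Bcl2a1b 0.33, and Casp4 0.57 to 0.68 from the others. Among 751 other genes, those closest to Pmaip1 were Cd69, an activation marker (0.10), Slfn8 (0.10) and Daxx (0.11), against a median distance of 0.53. Bbc3 was closest to Lrp1 (0.06), Pgm2 (0.07) and Ifi208 (0.08), with a median of 0.48. Bcl2a1b was closest to Phlda1 (0.11), Tmem140 (0.15) and Zfp608 (0.15), with a median of 0.47. Casp4 was closest to the inhibitory receptor Tigit (0.15), Zfp768 (0.19) and Ggt7 (0.21), with a median of 0.67. With 2 genotypes, a small distance mostly says that genes changed by a like factor.

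Few other genes of cell death were in the table. Of 68 genes on 7 lists (BH3-only, pro-survival BCL2, BAX-type effectors, apoptosome and inhibitors of apoptosis, caspases, death receptors, and pyroptosis with necroptosis), 9 were present. All 9 were called lower in cKO and 0 higher, beside 75.8% lower among all tested genes. Their median log2 fold change was -1.65 against -1.34 for all 794. Because 4 of the 9 are the genes chosen by name here, the count and the median partly restate that choice. Pmaip1 and Bbc3 were the 2 of 8 BH3-only genes in the table, Bcl2a1b the 1 of 8 pro-survival genes and Casp4 the 1 of 10 caspases. None of 3 BAX-type effectors or 12 death receptor genes was present, and genes outside the table were not analysed here.

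The other 5 were Birc3, an inhibitor of apoptosis, and 4 genes of pyroptosis and necroptosis. Birc3 went from 1927 ± 84.1 to 927 ± 12.3 scaled counts (log2 fold change of -1.06). Zbp1, a nucleic acid sensor that triggers necroptosis, went from 11004 ± 827 to 3514 ± 388 (-1.65), and Mlkl, the necroptosis effector, from 1179 ± 190 (SD, n = 3) to 613 ± 69.7 (-0.94). Gbp5, an interferon-induced GTPase, was lower by a log2 fold change of -1.91, and Nlrp3, an inflammasome sensor, by -1.43. The authors' deposited table gives all 4 of these a q-value over 0.05, from 0.0586 for Nlrp3 to 0.777 for Mlkl. Under the table-centred scalings Pmaip1, Bbc3, Gbp5 and Zbp1 were still called lower, 27.0% of all tested genes being so under TMM. Birc3 was then called higher (log2 fold change of 0.24 to 0.25), while Mlkl, at 0.35 to 0.37, and Nlrp3, at -0.14 to -0.13, were not called.

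**Figure D4:**
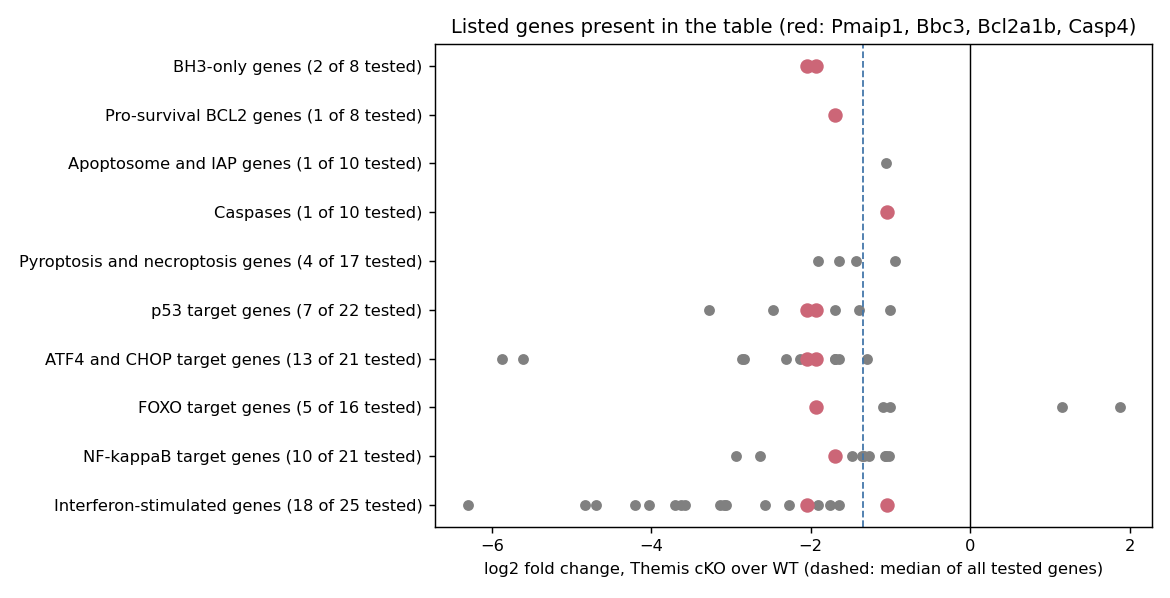
Log2 fold change of Themis cKO over WT (horizontal axis) for the tested genes on the lists of cell death genes and regulator targets, 1 row per list, with Pmaip1, Bbc3, Bcl2a1b and Casp4 in red and the median of all 794 tested genes (-1.34) as a dashed line. Lists of other cell types and of handling stress are not drawn. With the genotypes at equal depth all points drawn lie left of 0 except Klf2 and S1pr1 on the FOXO list; some turn sign under TMM scaling, Casp4, Birc3 and Mlkl among them.

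Lists of genes known to be induced by the same regulators were counted in the same way. These counts share genes, describe a selected table and are read against the 75.8% of all tested genes that were lower and the median of -1.34 over all 794. The table held 7 of 22 p53 targets, and all 7 were lower (median log2 fold change of -1.93). They included Plk2 (478 ± 40.8 against 49.0 ± 3.14 scaled counts, -3.28), the cell cycle inhibitor Cdkn1a (3861 ± 442 against 698 ± 82.4, -2.47), and Sesn2 (-1.69). It held 13 of 21 targets of ATF4 and CHOP, factors of the integrated stress response, again all lower (median -2.04), among them Atf3 (-5.87), Ddit4 (-2.01) and Ppp1r15a (-1.69). Pmaip1 and Bbc3 are on both of these lists, and 1 gene of each list turned sign under TMM scaling. The median of the p53 list is the value of Bbc3 itself, and that of the ATF4 and CHOP list the value of Pmaip1. These medians are thus not separate from the genes described here.

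The table held 10 of 21 NF-kappaB targets, Bcl2a1b among them, and all 10 were lower beside 75.8% of all tested genes, 4 of them turning sign under TMM scaling. Their median of -1.34 was, as rounded, that of all tested genes. Ccl3 (-2.93), a chemokine, was lower along with Nfkb2 (-1.27), Tnfaip3 (-1.33) and Birc3. It held 18 of 25 interferon-stimulated genes, all lower (median -3.11, against -1.34 over all tested genes), and 1 turned sign under TMM scaling. Rsad2 stood at -6.31, Cxcl10 at -4.70, Ifit3 at -4.02 and Isg15 at -3.58, and the list members Pmaip1 (-2.04) and Casp4 (-1.04) were nearer to 0 than these 4. The 5 of 16 FOXO targets present split: Bbc3, Ccng2 (-1.10) and Txnip (5970 ± 621 against 2978 ± 302 scaled counts) were lower, while S1pr1 (1.88) and Klf2 (1.15) were higher. Ccng2 and Txnip turned sign under TMM scaling.

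Markers of other cells and of handling stress also moved between the genotypes. The 8 of 17 NK cell markers present were all higher in cKO, beside 192 of all 794 tested genes. Their summed level was 583 to 900.2 scaled counts in WT libraries and 1485 to 2640 in cKO libraries. The 3 of 13 B cell markers present were also all higher (summed level of 60.0 to 102 against 118 to 308). So were the 3 of 13 gamma-delta T cell markers present (199.6 to 251 against 517 to 1528), again beside 192 of 794 tested genes. The 2 of 17 myeloid and dendritic markers present went opposite ways, Mpeg1 down and Itgax up, with a sum of 387 to 492 in WT and 164 to 271 in cKO. So did the 2 of 7 markers of CD4 and regulatory T cells, Ikzf2 down and Tnfrsf25 up (321 to 352 against 120 to 288). Of 16 granulocyte and erythroid markers, 3 were present, each at 0 in at least 1 library. Of 13 genes of dissociation stress and RNA quality, 7 were present and all 7 were lower (7029 to 7122 against 2854 to 3158), beside 75.8% of all tested genes, and 3 of them turned sign under TMM scaling. The part of these in the values of the 4 death regulators was not tested.

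**Figure D5:**
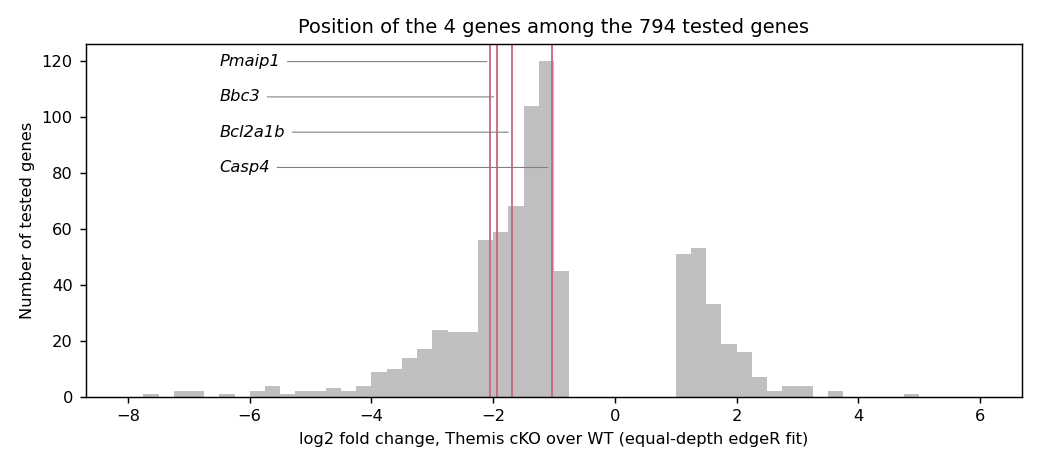
Number of tested genes (vertical axis) by log2 fold change of Themis cKO over WT (horizontal axis, bins of 0.25), with Pmaip1, Bbc3, Bcl2a1b and Casp4 as red lines. Pmaip1, Bbc3 and Bcl2a1b lie beyond the median of -1.34, and Casp4 lies at the inner edge of the lower genes. With the genotypes at equal depth, no tested gene fills the interval around 0.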

How the data were processed

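The authors deposited 1 table of 854 genes with an estimated count per library (66.1% of values are whole) for 3 WT and 3 Themis cKO libraries, grouped by their labels. Per the file headers it also holds the authors' log2 fold change, p-value and q-value. The submitters' processing notes name RSEM 1.2.12, Bowtie2 2.2.5, HISAT2 2.0.4, GRCm38.p6 and DESeq2 1.4.5, without roles. The selection of the genes is not stated in these sources.

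Counts were rounded and fitted in edgeR 4.0.16 (R 4.3.3) with genotype as the only term. The filter (smallest count 10) passed 794 genes, and 60 failed it. Benjamini-Hochberg adjustment ran over all tested genes. Library factors were medians of ratios within each genotype. On simulated cKO against WT data (781 tested genes) the test called 80.6% of 108 genes changed 2-fold, 100% of 92 changed 4-fold and 5 of 581 unchanged. The simulation took equal depth as true, left most genes unchanged and drew changes evenly in both directions. It thus cannot check the scaling or give an error rate for this table. A total of 16996 genes turned 71.0% of 427 ratios of deposited p-value to q-value into whole ranks (tolerance 0.02).

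The members, the 20 lists (259 genes, 79 present) and the tests were chosen with earlier results of these data known. Named genes are the members, Themis, up to 4 called genes per list with the smallest p, and the 3 closest profiles per member. Ppp1r15a was named outside this rule, and Klf2 was named after its value was seen. Lists of other cell types are given as sums. Upstream windows and coordinates are from RefSeq on GRCm38.p6 (842 of 854 gene IDs matched), transcripts from GENCODE. Alternatives also used DESeq2 1.42.0 and limma 3.58.1, with numpy 2.4.6, pandas 2.3.3, matplotlib 3.10.9 and Python 3.11.15.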

Additional observations from a re-analysis of the deposited data

How the results depend on the processing

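Scalings that centre the table on itself decide the most. Genes lower in cKO numbered 214 with TMM, 217 with DESeq2 size factors and 207 in DESeq2 itself, against 602 with the genotypes at equal depth. Of the 9 cell death genes, 4 were then lower and 1 higher under each of the 3. The log2 fold change of Bcl2a1b was -0.39, -0.40 and -0.40 and no longer called, and that of Casp4 turned to 0.27, 0.25 and 0.25. These scalings assume that most genes of the table are unchanged. The empty fold interval was itself found at equal depth, so it cannot decide between the scalings. In the authors' deposited table Themis had a log2 value of -2.25, as in the equal-depth fit. The cell death genes that turned sign under TMM had deposited log2 values below 0. These were -0.84 for Birc3 (q-value 0.00801), -0.49 for Mlkl (0.777) and -0.29 for Casp4 (0.906). Each lay closer to 0 than at equal depth, and which scaling is right was not tested. Adjusting over the 16996 implied genes ended the call of Casp4 (log2 fold change of -1.04, adjusted p = 0.160, edgeR). Pmaip1 (-2.12 to -0.74) and Bbc3 (-2.02 to -0.63) stayed lower and called under all 15 alternatives. Beside them, 75.8% of tested genes were called lower at equal depth and 27.0% under TMM. Leaving out each library in turn, Casp4 ranged from -1.27 to -0.78 (edgeR, adjusted p of 0.00288 to 0.0318) and Bcl2a1b from -1.86 to -1.51, all called. Those leave-one-out fits called 191 to 197 genes higher and 601 to 616 lower, of 800 to 811 tested. Nearly every gene was called, so a call there says little about a member. Of the alternatives, the table-centred scalings left the most genes uncalled. The difference in the Bbc3 to Bcl2a1b ratio ranged from -0.49 without cKO replicate 1 to 0.012 without cKO replicate 2. Deviations of same-numbered libraries correlated at -0.06, -0.05 and -0.16, and those of other WT and cKO libraries at -0.04 to 0.11. With deviations centred within 3 libraries, these values gave no sign of pairing by number but cannot exclude it. With the replicate block 191 genes were higher and 602 lower, and no call of the 4 genes changed. Depths are unknown, and Bcl2a1b and Casp4 rest on few reads, at most 72.3 and 91 per library.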
